A study of Mus musculus with 10 samples.

Results

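The genes described here are the chains of laminin, the proteins that tie laminin networks together, the adhesive glycoproteins of the matrix and the integrin subunits through which cells hold on to them. They were chosen by symbol, with earlier results of these data known, and all 33 were found among the 27179 Entrez genes of the count table: 10 laminin chains, 4 linkers (nidogens, perlecan and agrin), 4 adhesive glycoproteins, 9 integrin alpha and 6 integrin beta subunits. Whole-lung RNA was sequenced from 10 mice, 5 per group. All mice carried floxed alleles of Ern1, the gene of the endoplasmic reticulum stress sensor IRE1α. The control group, Flox, was Shh +/+ IRE1α fl/fl and carried no Cre, and the group labelled EpithelialKO was Shh Cre/+ IRE1α fl/fl, where the Shh locus drives Cre in the lung epithelium. The EpithelialKO mice therefore differ from the controls in the Cre allele at Shh as well as in the epithelial deletion, and the contributions of the allele and of the deletion cannot be told apart. Age and sex were not among the labels used.

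Basement membranes are sheets of matrix under epithelia, around capillaries and around muscle. Laminins, trimers of an alpha, a beta and a gamma chain, polymerize into one network, collagen IV forms another, and nidogens, perlecan and agrin join the networks. Integrins are heterodimers of an alpha and a beta subunit that span the cell membrane and link laminin, fibronectin, collagen or other ligands to the actin or keratin cytoskeleton. In the lung the thin barrier between air and blood rests on a basement membrane shared by alveolar epithelium and capillary endothelium, to which epithelium, endothelium and fibroblasts all contribute.

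Totals ranged from 14983829 to 21224412 counts per mouse. Ern1 stood at 20.1, 19.8, 15.6, 8.05 and 20.5 CPM in Flox and 12.3, 15.5, 10.7, 21.8 and 26.1 CPM in EpithelialKO (mice 2 to 6 and mice 17, 18, 20, 21 and 22, in that order). The groups overlapped, with Flox mouse 5 lowest and EpithelialKO mouse 22 highest. The counts cover the whole gene in all cells of the lung, so they do not check the genotype labels. Flox mice 4 and 6 stood apart from the other 8 in having 3949 and 4866 counts of Xist and 0 of the Y-linked Ddx3y. This is a difference in sex within the Flox group only, so the sexes were not balanced between the groups. Markers of the main lung cell types were present: of 8 genes each, summed epithelial markers ranged from 762 to 980.3 CPM in Flox and from 932 to 1211 in EpithelialKO. Endothelial markers ranged from 2240.4 to 2966 and from 1779 to 2311, and fibroblast markers from 796 to 1112 and from 689 to 744. CPM is the count of a gene relative to its library size, here after scaling between libraries by the trimmed mean of M values (TMM).

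Most of these transcripts had a lower fitted level in the EpithelialKO lungs, by modest amounts. Of the 32 members with enough counts to test, 28 had a negative log2 fold change of EpithelialKO over Flox, with a median of -0.26, beside 49.9% negative and a median of 0.0008 over all 15301 genes tested. No member passed an edgeR adjusted p of 0.05, a threshold that 0.0392% of all tested genes passed in either direction. At an unadjusted p below 0.05, 16 members were lower and 0 were higher, against 6.52% of all tested genes lower and 5.87% higher. All 5 EpithelialKO values lay below all 5 Flox values in 4 members, Lama4, Lamc1, Itga1 and Itgb3, against 1.48% of all tested genes, and in 0 members above them, against 1.63%. The Wald test of DESeq2 called 4 members at an adjusted p of 0.05, Lamc1, Nid1, Fn1 and Itga1, all lower, against 1.1% of all tested genes lower and 0.719% higher. In bulk tissue, fewer cells of a type and less RNA per cell cannot be told apart.

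The median log2 fold changes of the subgroups were -0.24 for the 10 laminin chains, -0.30 for the 4 linkers, -0.38 for the 4 adhesive glycoproteins, -0.25 for the 9 integrin alpha and -0.29 for the 5 tested integrin beta subunits. All 18 tested members of the first 3 subgroups were negative, and the 4 positive values, none at an unadjusted p below 0.05, were those of the integrins Itga7, Itga9, Itgav and Itgb4. The plot of fold changes shows that the filled points, those at an unadjusted p below 0.05, occurred in every subgroup.

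**Figure D1:**
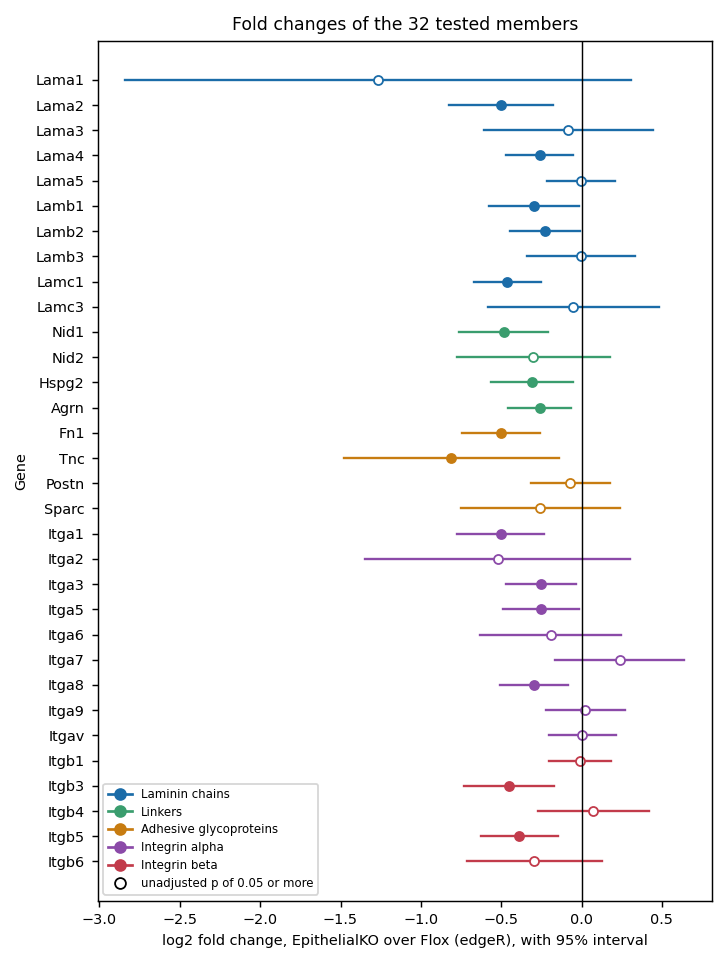
Log2 fold change of EpithelialKO over Flox (x axis) for each of the 32 tested members (y axis), by the edgeR quasi-likelihood fit on 5 mice per group; bars are 95% intervals, colours mark the subgroups and open points have an unadjusted p of 0.05 or more. The 16 filled points all lie to the left of 0.

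Exon length moved with these results. Over all tested genes with an annotated exon length the median log2 fold change went from 0.14 in the class up to 1000 bases, over 0.018 between 2000 and 4000 and -0.049 between 4000 and 6000, to -0.15 above 10000 bases. The members are long transcripts, with a median exon length of 6054.5 bases against 3285 over all tested genes. Within the length classes the medians of the members were -0.16 between 2000 and 4000 bases (4 members), -0.25 between 4000 and 6000 (11 members), -0.28 between 6000 and 8000 (10 members), -0.50 between 8000 and 10000 (3 members) and -0.20 above that (4 members). The medians of all tested genes in the same classes were 0.018, -0.049, -0.089, -0.11 and -0.15. Lower at an unadjusted p below 0.05 were 1, 6, 5, 2 and 2 members of these classes, and 0 members were higher. Of all tested genes in these classes 5.35%, 8.39%, 14.7%, 14.1% and 15.7% were lower at that level. The shares higher were 6.56%, 3.08%, 1.76%, 3.1% and 2.25%, and those with a negative fold change 46.68%, 58.94%, 67.79%, 70.8% and 72.13%.

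In a fit with an offset for exon length and GC content in each mouse, 24 of the 32 members were negative and their median was -0.16. In that fit 8 members were lower and 1 was higher at an unadjusted p below 0.05, against 5.38% and 5.43% of the genes in it. The 8 were Lama2, Lamc1, Nid1, Fn1, Itga1, Itga8, Itgb3 and Itgb5, and the higher one was Lama5. Without Flox mice 4 and 6, 12 of the 32 members were lower and 1 higher, Itga7, against 4.12% and 3.56% of all tested genes. The 8 genes lower with the offset were also lower at that level without Flox mice 4 and 6 and in each of the 10 fits that left out 1 mouse, and Agrn was in those 10. Of the remaining 7 members at that level, Lama4 lost it without Flox mouse 2, Hspg2 without Flox mouse 6 or EpithelialKO mouse 20 or 22, and Itga3 without Flox mouse 5 or EpithelialKO mouse 20 or 22. Tnc lost it without Flox mouse 5 or 6 or EpithelialKO mouse 21, and Lamb1, Lamb2 and Itga5 each lost it in 5 or more of these fits. The difference between genes over 6000 and genes up to 2000 bases, as the median deviation of log2(CPM + 0.5) of each class from the mean of all mice, was 0.16, -0.042, 0.16, -0.024 and 0.24 in Flox mice 2 to 6 and -0.26, 0.0097, -0.22, 0.066 and -0.087 in EpithelialKO mice 17, 18, 20, 21 and 22. The groups overlapped in this measure, with EpithelialKO mice 17 and 20 lowest and Flox mouse 6 highest.

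**Figure D2:**
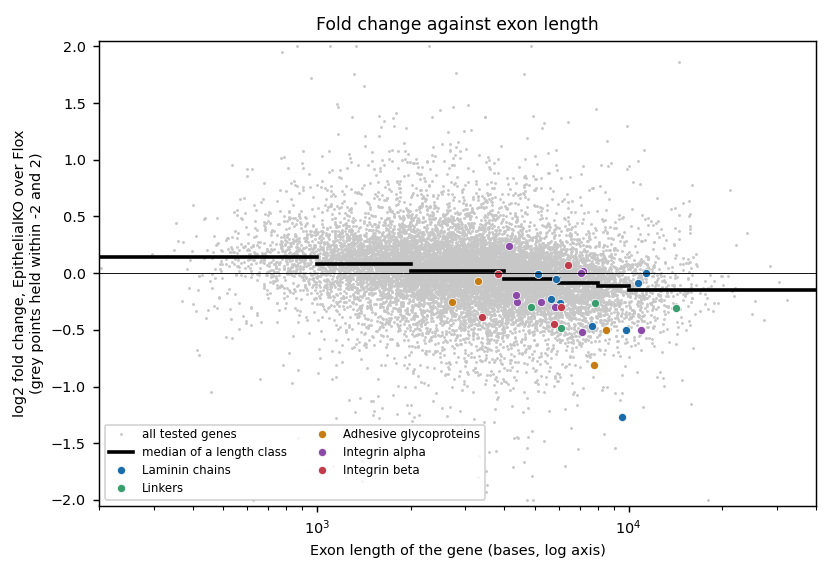
Log2 fold change of EpithelialKO over Flox (y axis) against the exon length of each gene in bases (log x axis); grey points are all tested genes, black lines the median of each length class and coloured points the 32 tested members. The medians go from 0.14 to -0.15 with length, and in each of the 5 classes that hold members the median of the members lies below that of all genes.

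Cell type markers differed in sign by class, and none in these lists passed an edgeR adjusted p of 0.05. Of the 8 endothelial markers all 8 were negative (median -0.38), as were 7 of 8 fibroblast markers (median -0.30), 7 of 8 smooth muscle and pericyte markers (median -0.48) and all 5 mesothelial markers (median -0.58). All 8 epithelial markers were positive (median 0.34), as were all 8 AT2 (median 0.26) and all 8 club and ciliated markers (median 0.45). The 8 AT1 markers had a median of -0.045. All 6 tested adipose and 5 tested erythroid markers were positive (medians 0.58 and 0.23), and 5 of 8 cardiac markers were negative (median -0.037). Median exon lengths were 4064 (endothelial), 2404 (fibroblast), 2774.5 (smooth muscle and pericyte), 3364 (mesothelial), 2079 (epithelial), 3108 (AT2) and 1447 bases (club and ciliated). No basal cell marker of 5 had enough counts to test. Summed mesothelial markers ranged from 277 to 629 CPM in Flox and from 124 to 502 in EpithelialKO, and smooth muscle and pericyte markers from 468 to 588 and from 344 to 569. None of these lists held a marker at 0 in all mice. The part of cell composition, or of exon length, in the differences of the members or of the markers was not tested.

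Start sites of 4 members are shown because 3 of them belong to the 8 genes that were lower in each of these fits (Itga1, Nid1 and Itgb5) and Itgb1, the partner of Itga1, had a fold change near 0. Each sequence is the 120 bases upstream of the annotated start, 5′ to 3′ on the gene's own strand, from RefSeq on GRCm38.p6. Capitals mark a CCAAT box (CCAAT or its reverse complement ATTGG) or a GC box (GGGCGG or CCGCCC), which are motifs of many promoters.
Itga1 (chr13:115101965-115102084, minus strand): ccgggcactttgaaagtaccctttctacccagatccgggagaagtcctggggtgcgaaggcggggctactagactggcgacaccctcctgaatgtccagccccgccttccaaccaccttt
Nid1 (chr13:13437482-13437601, plus strand): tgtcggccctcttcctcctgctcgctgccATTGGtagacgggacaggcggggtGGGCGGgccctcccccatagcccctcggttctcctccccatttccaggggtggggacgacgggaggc
Itgb5 (chr16:33829545-33829664, plus strand): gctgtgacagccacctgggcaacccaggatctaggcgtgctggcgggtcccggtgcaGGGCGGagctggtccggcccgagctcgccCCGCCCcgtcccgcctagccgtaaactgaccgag
Itgb1 (chr8:128685534-128685653, plus strand): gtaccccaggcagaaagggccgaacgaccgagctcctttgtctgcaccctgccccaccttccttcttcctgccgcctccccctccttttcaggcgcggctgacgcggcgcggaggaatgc

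All 4 stretches were rich in G and C, from 60% in Itga1 to 72.5% in Itgb5, and held 6 to 12 CpG pairs. GC boxes stood in Nid1 and Itgb5 and in neither Itga1 nor Itgb1, within these 120 bases. The table held 28 promoters of 22 members. In the 250 bases upstream, a GC box occurred in 13 of the 28 against 32.7% of the 32851 promoters in the table, a CCAAT box in 4 of the 28 against 33.8%, and a TATA box (TATAAA or TTTATA) in 3 of the 28, those of Postn and Tnc, against 12.4%. Neither the endoplasmic reticulum stress element, which contains a CCAAT box, nor the unfolded protein response element TGACGTGG, nor the Gli element GACCACCCA of hedgehog targets was found on either strand in any of the 28. These motifs occur in 0.113%, 0.563% and 0.225% of all promoters in the table.

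Among the laminin chains, the gamma chain Lamc1 had the lowest p of all members. Lamc1 is the gamma chain of most laminins (chromosome 1, 153218922 to 153332786, GRCm38) and stood at 116, 119, 123, 132 and 155 CPM in Flox mice 2 to 6 and 90.3, 96.4, 84.9, 106 and 91.3 CPM in EpithelialKO mice 17, 18, 20, 21 and 22. The highest EpithelialKO mouse, 21, lay below the lowest Flox mouse, 2. Its log2 fold change was -0.46 ± 0.10 (SE; edgeR, adjusted p = 0.0859), and with the offset -0.31.

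Of the alpha chains, which set the receptor specificity of a laminin, Lama2 and Lama4 were lower at an unadjusted p below 0.05. Lama2, the chain of muscle and mesenchymal basement membranes (chromosome 10, 26981285 to 27617191), stood at 26.9, 21.9, 24.3, 18.0 and 18.8 CPM in Flox and 15.6, 12.5, 14.6, 15.9 and 19.1 CPM in EpithelialKO. Only EpithelialKO mouse 22 reached the range of the Flox mice, and the log2 fold change was -0.50 ± 0.15 (SE; edgeR, adjusted p = 0.185). Lama4, the chain typical of endothelial basement membranes (chromosome 10, 38965515 to 39110188), stood at 61.7, 48.3, 53.9, 49.3 and 57.5 CPM in Flox and 47.8, 42.0, 47.4, 46.2 and 42.8 CPM in EpithelialKO. The groups were separated by a narrow gap between Flox mouse 3 and EpithelialKO mouse 17, and the log2 fold change was -0.26 ± 0.10 (SE; edgeR, adjusted p = 0.282). With the offset for length and GC content it was -0.15.

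Lama5, the main alpha chain of adult epithelial and vascular basement membranes (chromosome 2, 180176373 to 180225904), stood at 115, 94.2, 97.8, 118 and 111 CPM in Flox and 111, 120.4, 114, 89.8 and 100.3 CPM in EpithelialKO. All Flox mice lay within the EpithelialKO range, and the log2 fold change was -0.0012 ± 0.10 (SE; edgeR, adjusted p = 0.998), with a 95% interval from -0.21 to 0.21. With the offset it was 0.26 ± 0.10 (SE), at an unadjusted p of 0.0199 and an adjusted p (edgeR) of 0.351. Lama3, the alpha chain of the laminin under hemidesmosomes, was at a fold change (log2) of -0.083 ± 0.24 (SE; edgeR, adjusted p = 0.933), and its 95% interval of -0.61 to 0.44 was wide. Lama1, the chain of early embryonic basement membranes, was scarce, with 117 counts summed over Flox and 47 over EpithelialKO, and its interval of -2.84 to 0.31 allows either direction.

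Both beta chains other than Lamb3 were lower at an unadjusted p below 0.05. Lamb1 (chromosome 12, 31265146 to 31329644), a beta chain of mesenchymal and vascular laminins, stood at 92.4, 62.1, 71.8, 87.7 and 65.0 CPM in Flox and 58.3, 70.6, 72.8, 48.6 and 58.0 CPM in EpithelialKO. EpithelialKO mice 18 and 20 lay within the Flox range, and its log2 fold change was -0.30 ± 0.13 (SE; edgeR, adjusted p = 0.376). Lamb2 (chromosome 9, 108479847 to 108490530), a beta chain found around vessels and muscle, stood at 138, 148, 119, 167 and 149 CPM in Flox and 117, 141, 125, 127 and 105 CPM in EpithelialKO. EpithelialKO mice 18, 20 and 21 lay within the Flox range, and its log2 fold change was -0.23 ± 0.10 (SE; edgeR, adjusted p = 0.378). With the offset the log2 fold changes of Lamb1 and Lamb2 were -0.17 and -0.058. Lamb3, the partner of Lama3, had -0.0062 ± 0.16 (SE; edgeR, adjusted p = 0.993), and the gamma chain Lamc3 had -0.052 ± 0.25 (SE; edgeR, adjusted p = 0.967) at a low level of 6.42 ± 1.67 CPM (SD, n = 5) in Flox.

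Among the linkers, Nid1, the nidogen that bridges laminin and collagen IV (chromosome 13, 13437602 to 13512275), stood at 92.3, 75.6, 89.2, 62.6 and 97.1 CPM in Flox and 62.9, 74.5, 57.4, 51.0 and 52.2 CPM in EpithelialKO. Flox mouse 5 lay within the EpithelialKO range and the other 4 Flox mice above it. Its log2 fold change was -0.48 ± 0.13 (SE; edgeR, adjusted p = 0.153). Hspg2, which encodes the heparan sulphate proteoglycan perlecan (chromosome 4, 137468751 to 137570630), stood at 107, 94.6, 92.0, 96.3 and 120.1 CPM in Flox and 86.2, 101, 63.3, 89.2 and 71.8 CPM in EpithelialKO. EpithelialKO mouse 18 lay within the Flox range and mice 20 and 22 were lowest. The log2 fold change of Hspg2 was -0.31 ± 0.12 (SE; edgeR, adjusted p = 0.298), and with the offset it was -0.048. Agrn, the proteoglycan agrin (chromosome 4, 156165290 to 156197533), stood at 173, 176, 145, 177 and 188 CPM in Flox and 154, 152, 127, 150.4 and 134 CPM in EpithelialKO. Only Flox mouse 4 lay within the EpithelialKO range, and the log2 fold change was -0.26 ± 0.093 (SE; edgeR, adjusted p = 0.257), or -0.071 with the offset. Nid2, the other nidogen, had -0.30 ± 0.22 (SE; edgeR, adjusted p = 0.625) at 5.98 ± 1.23 CPM (SD, n = 5) in Flox.

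Of the adhesive glycoproteins, Fn1, fibronectin (chromosome 1, 71585473 to 71653280), stood at 153, 151, 179.5, 117 and 189.6 CPM in Flox and 117, 107, 102, 119 and 113 CPM in EpithelialKO. Flox mouse 5 was at the level of EpithelialKO mouse 17, and the other 4 Flox mice were above all EpithelialKO mice. Its log2 fold change was -0.50 ± 0.11 (SE; edgeR, adjusted p = 0.106), and without Flox mouse 5 it was -0.59 with an edgeR adjusted p of 0.0238. Without Flox mice 4 and 6 it was -0.33, and with the offset -0.32. Tnc, tenascin C, a glycoprotein of developing and wounded tissue (chromosome 4, 63959785 to 64047015), stood at 4.14, 6.63, 6.63, 11.6 and 15.04 CPM in Flox and 6.91, 5.55, 4.81, 3.19 and 4.62 CPM in EpithelialKO. Flox mice 5 and 6 were high and the other 3 Flox mice overlapped with EpithelialKO, and the log2 fold change was -0.81 ± 0.32 (SE; edgeR, adjusted p = 0.298), or -0.53 without Flox mouse 6.

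The most abundant per length of the 4 glycoprotein members, Sparc, a collagen-binding matricellular protein, stood at 683, 718, 729, 406 and 846 CPM in Flox and 469, 578, 342, 657 and 785 CPM in EpithelialKO. Its groups overlapped, with EpithelialKO mouse 20 and Flox mouse 5 lowest and Flox mouse 6 highest, and the log2 fold change was -0.26 ± 0.23 (SE; edgeR, adjusted p = 0.695). Postn, periostin, a ligand of integrins that contain Itgav, had -0.070 ± 0.12 (SE; edgeR, adjusted p = 0.854) and a 95% interval from -0.31 to 0.17.

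Of the integrin alpha subunits, the collagen and laminin receptor subunit Itga1 of mesenchymal and endothelial cells (chromosome 13, 114958079 to 115101964) stood at 91.0, 72.9, 96.9, 84.1 and 105 CPM in Flox and 44.9, 70.5, 71.2, 68.0 and 62.9 CPM in EpithelialKO. All EpithelialKO mice were below the lowest Flox mouse, 3, and EpithelialKO mouse 17 was lowest. The log2 fold change was -0.50 ± 0.13 (SE; edgeR, adjusted p = 0.139). Itga8, a receptor subunit for nephronectin on fibroblasts and smooth muscle (chromosome 2, 12106632 to 12301985), stood at 163, 142, 132, 153 and 158 CPM in Flox and 131, 131, 136, 114 and 98.5 CPM in EpithelialKO, and only Flox mouse 4 lay within the EpithelialKO range. Its log2 fold change was -0.30 ± 0.10 (SE; edgeR, adjusted p = 0.243).

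Itga3, a laminin receptor subunit of epithelia and the most abundant alpha subunit per length (chromosome 11, 95044475 to 95076844), stood at 153, 171, 154, 198 and 169.7 CPM in Flox and 151, 160.1, 137, 147 and 115 CPM in EpithelialKO. EpithelialKO mouse 18 reached the range of the Flox mice, and the log2 fold change was -0.25 ± 0.10 (SE; edgeR, adjusted p = 0.322), or -0.10 with the offset. Itga5, the fibronectin receptor subunit (chromosome 15, 103344286 to 103366791), stood at 36.8, 37.6, 37.9, 44.7 and 40.8 CPM in Flox and 39.6, 29.8, 35.8, 31.7 and 29.3 CPM in EpithelialKO. EpithelialKO mouse 17 lay among the Flox mice, and the log2 fold change was -0.25 ± 0.11 (SE; edgeR, adjusted p = 0.374), or -0.13 with the offset. The remaining alpha subunits did not reach an unadjusted p of 0.05. Itga6, the subunit that pairs with Itgb1 or Itgb4 to bind laminin, had -0.19 ± 0.20 (SE), the collagen receptor subunit Itga2 had -0.52 ± 0.39 (SE) at 6.76 ± 2.94 CPM (SD, n = 5) in Flox, and the muscle laminin receptor subunit Itga7 had 0.24 ± 0.19 (SE). Itga9 had 0.023 ± 0.12 (SE) and Itgav, which pairs with several beta subunits, had 0.0042 ± 0.10 (SE) with a 95% interval from -0.20 to 0.21.

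Of the beta subunits that pair with Itgav, Itgb3 and Itgb5 were lower at an unadjusted p below 0.05. Itgb3, the vitronectin receptor subunit of endothelium and platelets (chromosome 11, 104608000 to 104670476), stood at 36.7, 35.7, 35.6, 33.7 and 39.9 CPM in Flox and 24.3, 30.5, 26.3, 32.2 and 19.5 CPM in EpithelialKO. All EpithelialKO mice lay below all Flox mice, and the log2 fold change was -0.45 ± 0.13 (SE; edgeR, adjusted p = 0.171). Of 6 platelet and megakaryocyte markers 3 were negative and 3 positive, with a median of -0.013. They ranged from -0.41 ± 0.32 (SE) in Gp5 to 0.51 ± 0.16 (SE) in Pf4, and the integrin subunit Itga2b had -0.41 ± 0.26 (SE). Itgb5, another vitronectin receptor subunit (chromosome 16, 33829665 to 33949338), stood at 132, 98.5, 119, 94.99 and 106 CPM in Flox and 76.3, 89.8, 74.3, 79.2 and 102 CPM in EpithelialKO. EpithelialKO mouse 22 lay among the Flox mice, and the log2 fold change was -0.39 ± 0.11 (SE; edgeR, adjusted p = 0.171). Itgb6, the epithelial subunit whose pair with Itgav activates latent TGF-beta, had -0.29 ± 0.20 (SE; edgeR, adjusted p = 0.577), and its Flox values spread from 18.3 to 45.7 CPM. Itgb8 was not tested. It had 0, 0, 11, 0 and 4 counts in Flox mice 2 to 6 and 0, 0, 0, 2 and 1 in the EpithelialKO mice. A count of 0 allows up to 3 counts in a library, counting error only, so no difference was detectable at this depth. The annotation that was counted on is not named, and whether it lowers the counts of Itgb8, and with them its level per length, was not tested.

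Itgb1, the subunit shared by most matrix receptors (chromosome 8, 128685654 to 128733579), was the most abundant integrin per length and stood at 762, 730.4, 761, 718 and 823 CPM in Flox and 674, 714, 723, 777 and 876 CPM in EpithelialKO. All Flox mice lay within the EpithelialKO range, and the log2 fold change was -0.012 ± 0.091 (SE; edgeR, adjusted p = 0.978), with a 95% interval from -0.21 to 0.18. Itgb4, the hemidesmosome subunit, had 0.073 ± 0.16 (SE; edgeR, adjusted p = 0.902).

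**Figure D3:**
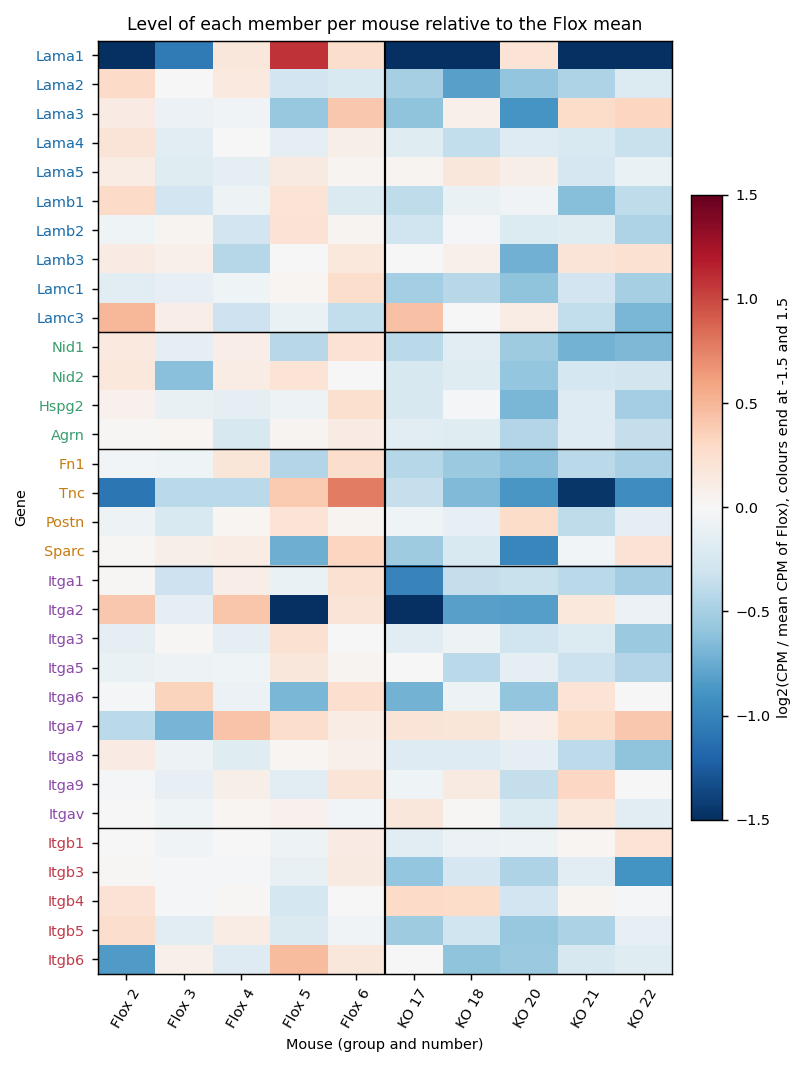
Colour gives log2 of the CPM in each mouse (columns) over the mean CPM of the Flox mice for each of the 32 tested members (rows, labelled in the colours of the subgroups); the colour scale ends at -1.5 and 1.5. Lamc1, Itga1 and Itgb3 are blue in all 5 EpithelialKO mice, whereas Lama3, Lamb3, Sparc and Itga6 vary between mice of the same group.

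Levels per length, as CPM per kilobase of exon, allow genes to be set against each other. In Flox the alpha chains ran from Lama5 (9.41 ± 0.925, SD, n = 5) and Lama4 (8.96 ± 0.928), whose ranges overlapped, to Lama3 (5.74 ± 1.36), Lama2 (2.24 ± 0.378) and Lama1 (0.142 ± 0.111). Those 3 did not overlap with each other or with Lama4 and Lama5. The beta chains ran from Lamb2 (25.6 ± 3.14) to Lamb3 (16.8 ± 2.53) and Lamb1 (13.0 ± 2.32). Lamb3 and Lamb1 overlapped in range, with Lamb3 above Lamb1 in each of the 5 mice. Lamc1 (16.9 ± 2.07) was far above Lamc3 (1.09 ± 0.284). In EpithelialKO Lama5 (9.40 ± 1.06, SD, n = 5) stood above Lama4 (7.48 ± 0.440) with ranges that met only at their ends, and Lamb3 (16.7 ± 3.82) and Lamb1 (10.6 ± 1.71) again overlapped in range, with Lamb3 higher in 4 of the 5 mice.

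Among the integrin members, Itgb1 stood at 199 ± 10.7 CPM per kilobase in Flox, far above the next members, which were Itgb5 (32.5 ± 4.52), Itga3 (32.2 ± 3.49) and Itga8 (25.8 ± 2.13). The leukocyte subunit Itgb2, which is not a member, stood at 40.7 ± 14.3. Itgb5 and Itga3 overlapped in range. Itga1 (8.21 ± 1.13), Itgav (8.29 ± 0.301) and Itga5 (9.03 ± 0.735) overlapped in range. Itgb4 (1.81 ± 0.214) and Itgb8 (0.0191) were lowest of the beta subunits. Sparc (248 ± 59.97) exceeded Postn (58.6 ± 6.46), Fn1 (18.6 ± 3.35) and Tnc (1.13 ± 0.567), with no overlap among these 4 genes.

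**Figure D4:**
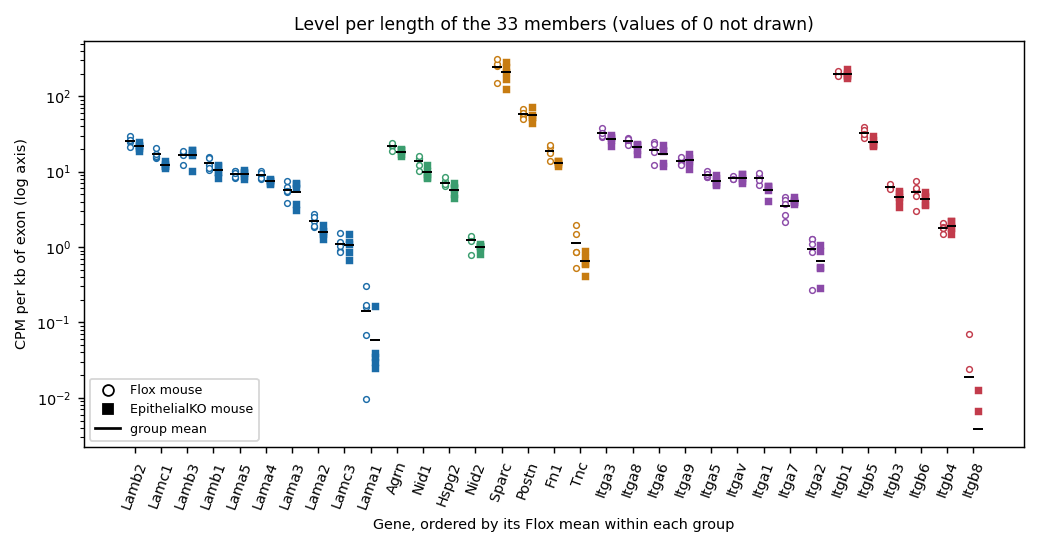
CPM per kilobase of exon (log y axis) of the 33 members (x axis, ordered by their Flox mean within each subgroup); open circles are Flox mice, filled squares EpithelialKO mice and black bars group means. Itgb1 and Sparc lie above the other members in both groups, and Itgb8 and Lama1 have the lowest means.

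Ratios of alternative chains of the same class within a mouse do not depend on scaling between libraries, and give the balance between those chains. The offset for length and GC content was not applied to them, and the genes of a pair can differ in exon length. Lama5 has 11388 bases of exon and Lama4 has 6046. The part of exon length in the ratios was not tested. Of 8 pairs chosen for their known tissue distribution, 7 could be tested, because Itgb8 had 0 counts in some mice. None passed an exact permutation test (two-sided, Benjamini-Hochberg adjusted over 7), which with 5 mice a group can give no p below 0.00794. The lowest p was that of Lama5 over Lama4, with log2 ratios of 0.90, 0.96, 0.86, 1.25 and 0.94 in Flox and 1.21, 1.52, 1.27, 0.96 and 1.23 in EpithelialKO. The mean log2 ratio differed by 0.25 (exact permutation p = 0.0714, adjusted p = 0.5), and Flox mice 3 and 5 lay within the EpithelialKO range.

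Lamb3 over Lamb1 differed by 0.27 (exact permutation p = 0.397, adjusted p = 0.706) and Itga3 over Itga1 by 0.26 (exact permutation p = 0.238, adjusted p = 0.706). The differences of Lama3 over Lama4, Lamb2 over Lamb1, Itgb4 over Itgb1 and Itgb6 over Itgb5 were 0.13, 0.067, 0.083 and 0.14, each smaller than the SD between the Flox mice (0.27, 0.29, 0.16 and 0.69).

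**Figure D5:**
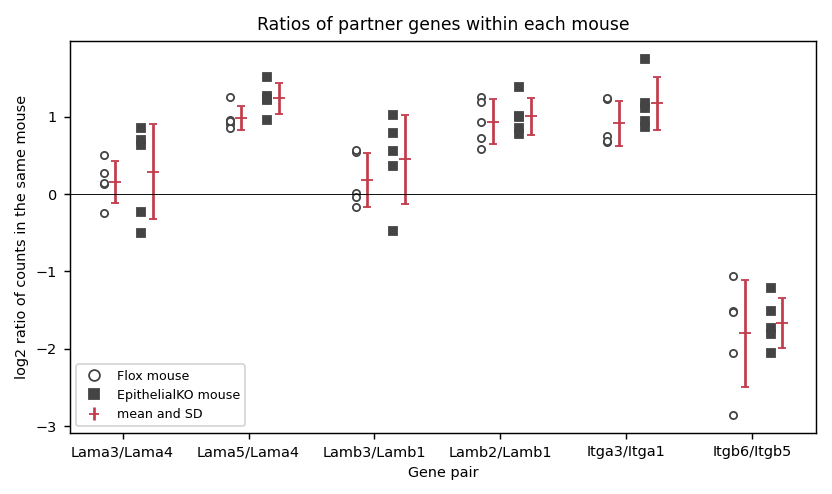
Log2 ratio of the counts of a gene pair in the same mouse (y axis) for 6 of the 7 tested pairs (x axis; Itgb4 over Itgb1, which lies near -6, is left out of the plot); open circles are Flox mice, filled squares EpithelialKO mice, and red bars the mean and SD of 5 mice. The groups overlap in each pair.

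Other genes of the same structures were read beside the members. Of 22 further basement membrane genes, all tested, 17 were negative with a median of -0.23, and 8 were lower and 0 higher at an unadjusted p below 0.05, against 6.52% and 5.87% of all tested genes. They are long too, with a median exon length of 6238 bases, and of all tested genes between 6000 and 8000 bases 14.7% were lower at that level, with a median of -0.089. The 4 with the lowest p were Col18a1, the source of endostatin (-0.56 ± 0.15 SE), the nephronectin gene Npnt (-0.53 ± 0.18 SE), the hemidesmosomal collagen Col17a1 (-0.82 ± 0.32 SE) and the peroxidasin gene Pxdn (-0.31 ± 0.13 SE), which cross-links collagen IV. Npnt encodes a ligand of the integrin of Itga8 and Itgb1. The main collagen IV chains Col4a1 and Col4a2 had -0.22 ± 0.10 (SE) and -0.23 ± 0.11 (SE), and Col4a3, a chain of the alveolar barrier, had -0.0089 ± 0.15 (SE).

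Of 20 tested among 23 other adhesive glycoproteins, 13 were negative and the median was -0.019. At an unadjusted p below 0.05, 5 were lower and 0 higher, against 6.52% and 5.87% of all tested genes. The elastic fibre glycoprotein Emilin1 fell, from 47.2 ± 9.49 to 26.0 ± 3.16 CPM (SD, n = 5 each; edgeR, adjusted p = 0.0272), but no gene passed without Flox mice 4 and 6 or in any fit that left out 1 mouse other than Flox mouse 5. Next by p were Ecm1 (-0.38 ± 0.11 SE), the integrin ligand Mfge8 (-0.26 ± 0.083 SE) and Sparcl1 (-0.29 ± 0.093 SE), which is related to Sparc. Of these 20 genes, 4 had groups that did not overlap, Emilin1, Ecm1, Mfge8 and Fbln1, all lower, against 1.48% of all tested genes lower and 1.63% higher.

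Of 11 other integrin subunits, mostly of leukocytes, 9 were negative with a median of -0.27. The lowest p values were those of the myeloid subunit Itgam (-0.54 ± 0.16 SE), the fibronectin and VCAM receptor subunit Itga4 (-0.61 ± 0.18 SE), the lymphocyte subunit Itgal (-0.38 ± 0.14 SE) and Itgb7 (-0.27 ± 0.16 SE), of which the first 3 had an unadjusted p below 0.05, against 6.52% of all tested genes lower at that level. Of 29 genes of the adhesion machinery inside the cell, 25 were negative with a median of -0.19, and 6 were lower and 0 higher at an unadjusted p below 0.05. Over all tested genes 49.9% were negative, 6.52% lower and 5.87% higher. The median exon length of these 29 genes was 4034 bases, and all tested genes between 4000 and 6000 bases had a median of -0.049. The lowest p values were those of the kinase Ptk2b (-0.45 ± 0.12 SE), the filamin Flna (-0.32 ± 0.092 SE), zyxin, Zyx (-0.28 ± 0.094 SE), and the talin Tln1 (-0.31 ± 0.11 SE). The integrin-linked kinase Ilk (0.061 ± 0.087 SE) and the kindlin Fermt2 (-0.016 ± 0.081 SE) had values near 0.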

How the data were processed

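RNA of whole lung from 10 mice was extracted with Trizol, and poly(A) RNA was captured on oligo(dT) beads, per the labels' protocols. The submitters' processing notes name cutadapt, HISAT2 and GRCm38. No source used here names the counting tool, annotation or strand setting, so overlapping genes may share reads. The authors deposited raw counts, 1 row per Entrez gene, which are whole numbers that carry no normalization. Symbols and coordinates came from RefSeq on GRCm38.p6, which matched 25275 of 27179 genes.

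The default filterByExpr of edgeR 4.0.16 (R 4.3.3) kept 15301 genes. After TMM scaling, all 10 mice entered a robust quasi-likelihood fit with a term for group, with p-values adjusted by Benjamini-Hochberg and called at 0.05. Exon length is the union of GENCODE M21 exons per gene, known for 93.5% of the genes tested, and the offset for length and GC content was a spline fit of each mouse's log2 deviations, centred at the median gene. The test was tested on simulated data for EpithelialKO against Flox: of 200 genes changed by a fold of 1.5, 28% were recovered among 15081 tested, of 200 changed by 2, 69.5% among 15095, and of 200 changed by 4, 92.5% among 15081. Of the genes called at these folds, 6.67%, 9.74% and 7.04%, in that order, had not been changed. Alternatives were DESeq2 1.42.0, limma-voom (limma 3.58.1), other scalings and filters, leaving out each mouse and leaving out Flox mice 4 and 6. Per-mouse values are given for members at an unadjusted p below 0.05 or with groups that do not overlap, and for the most abundant member per length of each subgroup. In each pathway list the genes past the threshold and up to 4 with the lowest p are named, and Col4a1, Col4a2, Col4a3, Ilk, Fermt2 and Fbln1 were named after their values were seen. The members, lists and pairs were chosen with earlier results of these data known.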

Additional observations from a re-analysis of the deposited data

Results flagged for a closer look

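In groups of 5 mice, 7 of the 64 groups examined (32 members in 2 groups) held a mouse whose value on the log2 scale lay apart from the other 4 by more than 0.71 of the group's range. For a single group of independent, normally distributed values chance gives about 1 in 20. The 64 groups come from the same 10 mice and are not independent, so their number was not tested against chance. Lama1 was at 1.56 CPM in EpithelialKO mouse 20 and at 0.238 to 0.379 CPM in the other 4 mice of that group. Lamb3 was at 63.8 CPM in Flox mouse 4 and at 85.5 to 96.1 CPM in the other 4 mice of that group. Lamb3 was at 52.1 CPM in EpithelialKO mouse 20 and at 85.9 to 100.5 CPM in the other 4 mice of that group. Nid2 was at 3.88 CPM in Flox mouse 3 and at 5.94 to 6.92 CPM in the other 4 mice of that group. Nid2 was at 3.99 CPM in EpithelialKO mouse 20 and at 4.96 to 5.28 CPM in the other 4 mice of that group. Itga1 was at 44.9 CPM in EpithelialKO mouse 17 and at 62.9 to 71.2 CPM in the other 4 mice of that group. Itga2 was at 1.93 CPM in Flox mouse 5 and at 6.14 to 9.02 CPM in the other 4 mice of that group. EpithelialKO mouse 20 was the mouse apart for Lama1, where it was high, and for Lamb3 and Nid2, where it was low.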

How the results depend on the processing

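No paired analysis was possible because the groups share no mouse numbers. The count of genes past the adjusted threshold was 6 of 15301, and 279 with the DESeq2 Wald test, 32 with limma-voom, 34 without a count filter, 2 with the length and GC offset and 0 without Flox mice 4 and 6, where 1207 genes had an unadjusted p below 0.05. Leaving out 1 mouse gave 0, with 1444 to 1960 genes at an unadjusted p below 0.05, except for 48 without Flox mouse 5. At the adjusted threshold DESeq2 called 4 members, Lamc1, Nid1, Fn1 and Itga1, all lower, against 1.1% of all tested genes lower. limma-voom called Fn1, and edgeR called Fn1 without Flox mouse 5. The count of members lower at an unadjusted p below 0.05 was 8 with the offset and 11 to 16 when single mice were left out, and the count with a negative fold change was 25 to 29.

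With the offset the medians moved to -0.11 for laminin chains, -0.13 for linkers and -0.13 for alpha subunits, and under limma-voom that of the beta subunits moved to -0.20. With single mice left out, the medians ranged from -0.28 to -0.21 (laminin chains), -0.38 to -0.23 (linkers), -0.49 to -0.30 (glycoproteins), -0.28 to -0.21 (alpha) and -0.35 to -0.15 (beta, the last value without Flox mouse 5). Without Flox mice 4 and 6 the median of the glycoproteins was -0.21.

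Signs reversed only in members with values near 0: with the offset Lama3 (0.077), Lama5 (0.26), Lamb3 (0.13) and Lamc3 (0.13), with upper-quartile scaling Lama5 (0.015), Lamb3 (0.0081) and Itgb1 (0.0031), under limma-voom Lama5 (0.020) and Itga9 (-0.013), and without Flox mice 4 and 6 Lama3 (0.063) and Itgb1 (0.032). With single mice left out, Lama3 ranged from -0.20 to 0.063, Lama5 -0.046 to 0.056, Lamb3 -0.10 to 0.13, Lamc3 -0.20 to 0.11, Itga9 -0.060 to 0.11, Itgav -0.041 to 0.053 and Itgb1 -0.072 to 0.025. The ratios that crossed 0 were Lama3 over Lama4 (-0.011 to 0.33), Lamb2 over Lamb1 (-0.029 to 0.15), Itgb4 over Itgb1 (-0.014 to 0.16) and Itgb6 over Itgb5 (-0.13 to 0.32). The cause of these changes was not tested. Depth limits the reading of Lama1 and Itgb8, and for Itgb8 the unnamed annotation may too.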

Other observations

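One pattern across mice did not follow the groups. The 3 lowest values of Lama3, Sparc, Itga2 and Itga6 were those of Flox mouse 5 and EpithelialKO mice 17 and 20. For Lama3 they were 41.7, 40.6 and 33.5 CPM, against 58.2 to 81.8 in the other 7 mice. For Itga6 they were 53.1, 52.2 and 56.7 CPM, against 80.1 to 107 in the others. Ern1 was lowest in the same 3 mice, at 8.05, 12.3 and 10.7 CPM. These mice also had the 3 lowest library totals, 14983829, 17090576 and 16234895 counts, against 17729491 to 21224412 in the others. The part of library size in this pattern was not tested. Over all tested genes 651 of 15301, or 4.25%, had these 3 mice lowest, and 4 of the 32 tested members. The pattern was chosen after the values were seen, and it is a description without a test.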
